A study of Mus musculus with 23 samples.

Results

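The Krüppel-like factors Klf2, Klf3, Klf4, Klf5, Klf6, Klf7, Klf9, Klf10, Klf13 and Klf15 were followed in primary mouse embryonic fibroblasts (MEFs) that carried different versions of the glucocorticoid receptor (GR). Members were the rows of the count table whose Ensembl identifier mapped to these symbols. This gave 10 of the 55487 genes in the table, and all 10 passed the filter on low counts that left 15748 genes for testing. MEFs of the FVB/NJ strain received 10 nM of the synthetic glucocorticoid dexamethasone (Dex), or vehicle, for 5 h. Cultures with the unmodified receptor are called GRwt/wt. In GRD/D cells threonine replaced an alanine of the DNA-binding domain, at its dimer interface. In GRL/L cells alanine replaced an isoleucine of the ligand-binding domain, and GRD+L/D+L cells, the double mutant, carried both replacements. RNA-seq gave 23 libraries in 8 groups of genotype and treatment, 3 per group except GRD/D vehicle with 2. The study describes 3 cultures per genotype, each from a different mouse, for its higher Dex dose, and states the same setup for this one. The mutations were homozygous. The cultures were mixed outgrowths of midgestation embryos without head and organs, grown in medium with fetal calf serum, so a difference between genotypes was also a difference between few embryos.

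Krüppel-like factors are transcription factors with a block of C2H2 zinc fingers at the carboxyl end that binds GC-rich and CACCC-type sequences in promoters and enhancers. Members differ in the parts outside the fingers. Klf3 recruits the co-repressor CtBP, Klf9, Klf10 and Klf13 recruit Sin3A, and Klf2, Klf4, Klf5, Klf6 and Klf7 act mainly as activators. Klf15 regulates amino acid, glucose and lipid metabolism, and Klf9 and Klf15 are known as targets of GR in several tissues.

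Library totals ranged from 16.5 M to 23.1 M counts. GRwt/wt vehicle replicate 1 stood apart, with a highest Spearman correlation to any other library of 0.916 against at least 0.973 for the rest. Its deviation from each gene's median over all libraries rose with GC content across genes (Spearman 0.688). Macrophage markers summed to 4571 CPM (read counts scaled to a common library size) in GRwt/wt vehicle replicate 3, against 42.5 and 18.9 CPM in replicates 1 and 2 and 18.2 to 96.4 CPM in GRwt/wt Dex. All 8 of these markers had counts in every group, and their sums were 253 to 1564 CPM in GRD/D, 283 to 707 CPM in GRL/L and 8.16 to 80.3 CPM in GRD+L/D+L. Skeletal muscle markers summed to 210 and 140 CPM in the vehicle and Dex libraries of GRwt/wt replicate 1 while the remaining GRwt/wt libraries had sums of 10.2 to 11.9 CPM, with the defining genes Myod1 and Myog at 0.136 CPM or less. In vehicle replicate 1 this sum was nearly all Des, at 210 CPM, an intermediate filament gene that smooth muscle also expresses, and the other 7 markers were at 0.724 CPM or less in every library. Fibroblast markers summed to 32455 to 56019 CPM over all libraries. The part of these differences in the results was not tested. Where a call named here was lost without GRwt/wt vehicle replicate 1 or 3, or without both, its value without them is given. In bulk RNA, fewer cells of a type and less RNA per cell cannot be told apart. Transcripts of Nr3c1, which encodes GR, were at 55.0 ± 44.8 CPM (SD, n = 3) in GRwt/wt vehicle and 67.4 ± 19.9 CPM (SD, n = 3) in GRwt/wt Dex, with 4.08 CPM in vehicle replicate 1. Its levels in vehicle and under Dex were 106 ± 1.36 (n = 2) and 93.1 ± 3.08 CPM (n = 3) in GRD/D, 135 ± 2.44 and 135 ± 3.59 CPM in GRL/L and 205 ± 66.9 and 204 ± 76.2 CPM in the double mutant (SD, n = 3). Every mutant library was thus above every GRwt/wt library, and the part of this in the results was not tested. A point mutation leaves the transcript countable, so the level does not check the genotype.

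Promoter sequences are shown for Klf15, Klf9 and Klf13, which had their highest libraries in GRwt/wt Dex and a sequence at hand, to place glucocorticoid and Krüppel-like factor motifs. They are the 250 bases before the transcription start in RefSeq GRCm38.p6, written 5′ to 3′ on the strand of the gene, with capitals marking the GC box GGGCGG and the CACCC box or their reverse complements. The Klf15 window is chr6:90462326-90462575 on the plus strand, the Klf9 window chr19:23140976-23141225 on the plus strand and the Klf13 window chr7:63938916-63939165 on the minus strand.
Klf15: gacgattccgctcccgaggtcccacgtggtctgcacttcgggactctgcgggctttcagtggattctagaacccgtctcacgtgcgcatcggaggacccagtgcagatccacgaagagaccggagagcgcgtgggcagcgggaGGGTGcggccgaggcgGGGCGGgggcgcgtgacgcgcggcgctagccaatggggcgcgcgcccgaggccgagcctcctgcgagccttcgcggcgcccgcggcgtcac
Klf9: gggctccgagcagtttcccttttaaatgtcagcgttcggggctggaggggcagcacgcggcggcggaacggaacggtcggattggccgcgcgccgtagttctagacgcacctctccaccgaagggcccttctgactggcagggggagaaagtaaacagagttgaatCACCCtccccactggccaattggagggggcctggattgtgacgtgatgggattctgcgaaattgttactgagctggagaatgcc
Klf13: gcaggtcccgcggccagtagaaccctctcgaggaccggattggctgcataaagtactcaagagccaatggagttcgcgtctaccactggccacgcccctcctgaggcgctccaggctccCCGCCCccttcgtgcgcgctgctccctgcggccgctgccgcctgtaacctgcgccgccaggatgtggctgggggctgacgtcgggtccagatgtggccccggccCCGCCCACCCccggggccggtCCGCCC
RefSeq windows were matched for 8 of the 10 members, all but Klf5 and Klf10. The hexamer AGAACA, which a single GR subunit binds, was searched on both strands and was in 0 of the 8 windows and in 16.1% of the 32851 windows of all genes. The GC box was in 7 of the 8 windows, the exception being Klf9, and in 32.7% of all windows. The CACCC box was in 6 of the 8 windows, all but Klf4 and Klf6, and in 52.0% of all windows. G or C made up 72.0% of the Klf15 window, 71.6% of the Klf13 window, 59.6% of the Klf9 window and 52.4% of the median window. GC and CACCC boxes can overlap, and a match is only a match of letters in a window that leaves out distal enhancers.

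The 10 genes lie on 10 different chromosomes in GENCODE M21 (GRCm38). Those described most closely are Klf15 (ENSMUSG00000030087, chr6:90462576-90475238, plus strand), Klf9 (ENSMUSG00000033863, chr19:23141226-23168134, plus strand), Klf5 (ENSMUSG00000005148, chr14:99298691-99315036, plus strand), Klf13 (ENSMUSG00000052040, chr7:63886351-63938915, minus strand) and Klf10 (ENSMUSG00000037465, chr15:38291463-38300706, minus strand). Per kilobase of exon, the highest levels in GRwt/wt vehicle were those of Klf6, at 32.0 ± 25.5 CPM per kb (SD, n = 3), and of Klf4, at 29.3 ± 9.13 CPM per kb. Klf15 was the lowest, at 1.34 ± 0.501 CPM per kb, and the other members lay between 2.76 and 13.8 CPM per kb. Under Dex in GRwt/wt, Klf9 came after Klf6 and Klf4 with a level of 19.5 ± 2.60 CPM per kb, and Klf15 at 4.77 ± 0.214 CPM per kb was above Klf7 at 3.68 CPM per kb. Klf15 was also counted least, with 8 to 298 reads per library, whereas the other members had at least 156. Klf3 and Klf7 overlap antisense genes, Gm20033 with 440 counts against 73797 for Klf3 over all libraries and Gm13748 with 4 counts against 14792 for Klf7. Exons of Klf7 also overlap Gm26649, a lincRNA gene on the other strand that has no row in the count table. Whether counting used the strand is not given in the sources used here.

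Over the 23 libraries, Klf15 varied most, with a highest CPM 30.4 times the lowest, and Klf4 varied least, at 2.40 times. The ratios of 10.8 for Klf6, 10.4 for Klf9, 6.45 for Klf3 and 6.09 for Klf7 had their lowest value in GRwt/wt vehicle replicate 1. That library held the lowest value of all 23 for 6 members, Klf3, Klf5, Klf6, Klf7, Klf9 and Klf10, at 0.127 to 0.589 times the mean of vehicle replicates 2 and 3. These 6 had the lowest GC contents of the family, 42.4% to 47.9% of exon bases. The remaining 4, at 54.6% to 61.6%, had ratios of 0.553 for Klf15, 1.25 for Klf13, 1.39 for Klf4 and 1.65 for Klf2. The heat map of the family by library shows this column, and beside it the high Klf15, Klf9, Klf5 and Klf13 of the GRwt/wt Dex libraries.

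**Figure D1:**
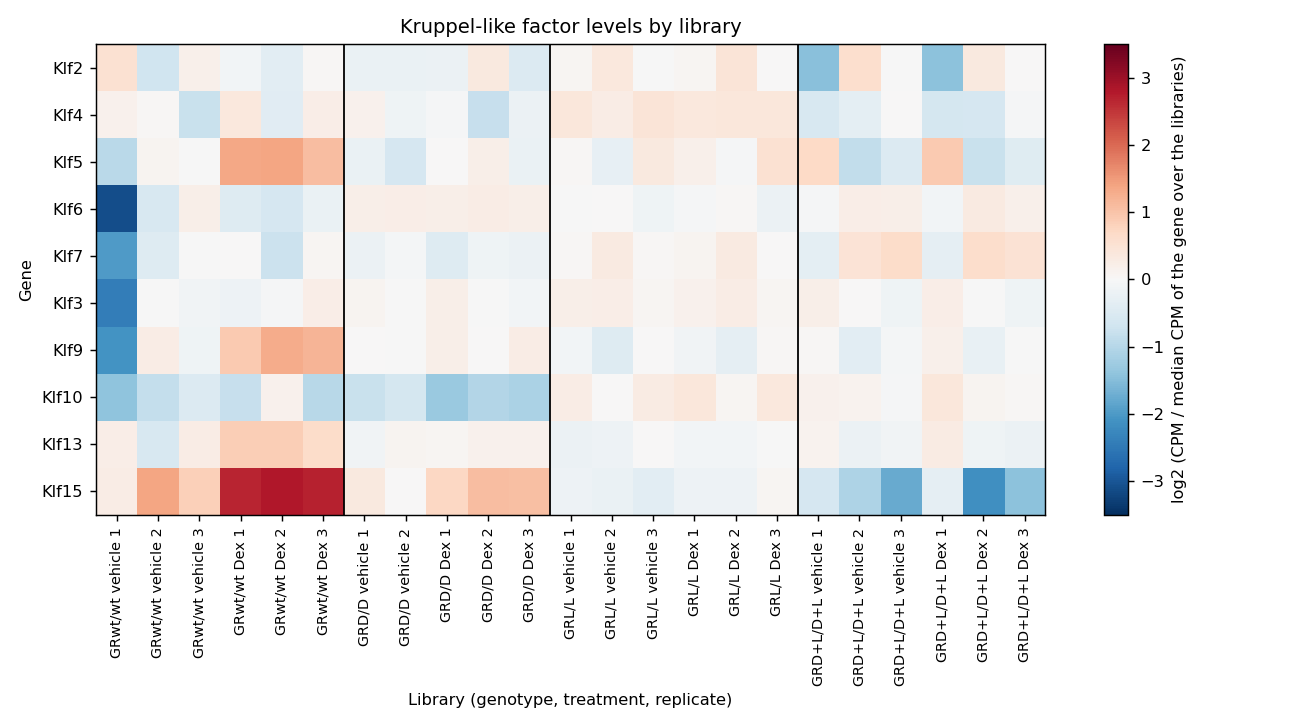
Level of the 10 members (rows) in each of the 23 libraries (columns, ordered by genotype and treatment), as log2 of CPM over the member's median across libraries, on a colour scale from -3.5 to 3.5, with lines between genotypes. Klf15, Klf9, Klf5 and Klf13 are above their medians in all 3 GRwt/wt Dex libraries, and GRwt/wt vehicle replicate 1 holds the lowest value of 6 members.

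The comparison of Dex with vehicle in GRwt/wt asked which members responded through the unmodified receptor. Klf15 rose, and Klf9, Klf5 and Klf13 were higher in every Dex library than in every vehicle library without passing the adjusted threshold. Klf15 was at 2.43, 5.21 and 3.58 CPM in vehicle replicates 1, 2 and 3 and at 12.8, 14.0 and 13.2 CPM in the Dex replicates. Its groups were far apart, with means of 3.74 ± 1.40 CPM in vehicle and 13.3 ± 0.598 CPM under Dex (SD, n = 3) and a ratio of 3.56 between them. The log2 fold change (LFC) was 1.83 (SE 0.36, 95% interval 1.08 to 2.58, adjusted p = 0.0349). Genes were called where edgeR's quasi-likelihood test over all 15748 genes gave an adjusted p no higher than 0.05 and the LFC was 1 or more in size. The Klf15 call was lost without vehicle replicate 1, when the LFC was 1.60 (adjusted p = 0.0510), without both vehicle replicates 1 and 3, when it was 1.34 (adjusted p = 0.310), and without any single Dex library, when the adjusted p was 0.0707 to 0.121. It was kept without vehicle replicate 2 (LFC 2.13, adjusted p = 0.0147) and without vehicle replicate 3 (LFC 1.83, adjusted p = 0.0373). With only the GRwt/wt libraries in the fit the adjusted p of Klf15 was 0.970, and that fit called 0 of its 14156 genes. DESeq2 gave 3.42e-07 and called 279 genes, against 25 in the main fit. The call was lost in 8 of 17 alternatives in all.

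Klf9, a repressor that responds to steroid and thyroid hormones, was at 9.98, 51.4 and 38.1 CPM in vehicle and at 79.9, 104.1 and 97.4 CPM under Dex. The groups did not overlap, although vehicle replicate 1 was far below its partners, and the means of 33.2 ± 21.2 and 93.8 ± 12.5 CPM (SD, n = 3) gave a ratio of 2.83. The LFC of Klf9 was 1.50 (SE 0.35, 95% interval 0.76 to 2.24), with an adjusted p of 0.104. Without GRwt/wt vehicle replicate 1 the LFC was 1.07 (adjusted p = 0.0112), without replicate 2 it was 1.96 (adjusted p = 0.0138), without replicate 3 it was 1.64 (adjusted p = 0.0524), and without both 1 and 3 it was 0.85 (adjusted p = 0.139). The size of the Klf9 difference thus depended on the vehicle libraries used, while its direction did not.

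Klf5 and Klf13 are described because their groups did not overlap, a choice made after their values were seen. Klf5, an activator linked to growth of epithelium and smooth muscle, was at 9.21, 18.6 and 17.3 CPM in vehicle and at 44.8, 45.5 and 37.1 CPM under Dex. The lowest Dex library was well above the highest vehicle library, and the LFC was 1.50 (SE 0.41, 95% interval 0.62 to 2.37, adjusted p = 0.146). Klf13, a close relative of Klf9, was at 68.3, 39.4 and 70.2 CPM in vehicle and at 106.6, 105.1 and 91.1 CPM under Dex. Vehicle replicate 1 was not low for Klf13, and the LFC was 0.77 (SE 0.18, 95% interval 0.39 to 1.14, adjusted p = 0.104). Without vehicle replicate 1 the LFC of Klf13 was 0.88 (adjusted p = 0.0419), without replicate 3 it was 0.95 (adjusted p = 0.0258), and without both it was 1.34 (adjusted p = 0.00663). For Klf5 the same omissions gave LFCs of 1.24 (adjusted p = 0.182), 1.64 (adjusted p = 0.0787) and 1.18 (adjusted p = 0.520). DESeq2 gave adjusted p-values of 0.00483 for Klf9, 0.0182 for Klf5 and 0.00277 for Klf13 at LFCs of 1.52, 1.52 and 0.80.

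**Figure D2:**
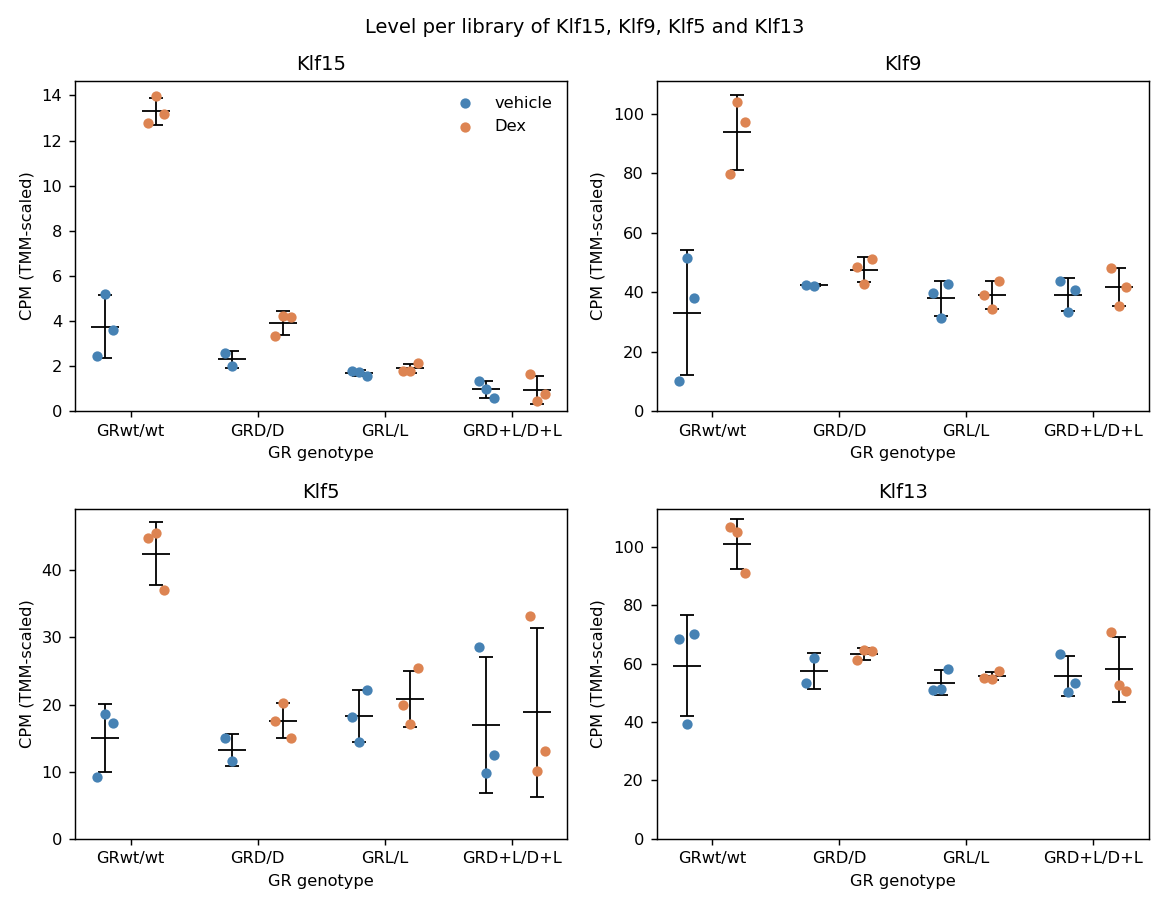
CPM (linear axis from 0) of Klf15, Klf9, Klf5 and Klf13 in the 8 groups, with points for libraries and black bars for mean ± SD. In each panel the 3 GRwt/wt Dex libraries lie above every other library, with means of 13.3, 93.8, 42.5 and 101.0 CPM for Klf15, Klf9, Klf5 and Klf13.

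Of the 10 members, 1 was called with Dex in GRwt/wt, beside 0.159% of all genes tested, and 4 had groups that did not overlap, all higher under Dex, beside 9.46% of all genes in either direction. The median LFC of the members was 0.48, against -0.01 for all genes. LFCs of Klf2, Klf3, Klf4, Klf6, Klf7 and Klf10 lay between -0.22 for Klf2 and 0.53 for Klf3. Vehicle replicate 1 was low for Klf3, Klf6 and Klf7, at 31.2, 25.2 and 8.61 CPM. The means of vehicle replicates 2 and 3 were 160.5, 198.1 and 29.3 CPM, and the Dex means 170.1, 162.9 and 30.0 CPM. LFCs of these genes thus rested in part on that library, and the family median was taken with it. For Klf2 and Klf4 that library was above the mean of replicates 2 and 3. Klf10, first described as a gene induced by TGF-beta, was at 18.5, 27.5 and 35.4 CPM in vehicle and at 27.9, 54.7 and 25.0 CPM under Dex, so its higher Dex mean came from replicate 2. Its LFC of 0.40 became -0.04 without that library.

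In GRD/D the 4 members that were highest in GRwt/wt Dex differed less between treatments, and none of the 10 members was called. Klf15 was at 2.56 and 2.02 CPM in the 2 vehicle libraries and at 3.32, 4.24 and 4.18 CPM in the Dex libraries. The groups did not overlap, and the LFC of 0.77 had a 95% interval of -0.08 to 1.62 (adjusted p = 1). Klf9 was at 42.6 and 42.2 CPM in vehicle and at 48.7, 42.9 and 51.1 CPM under Dex, with an LFC of 0.17 (SE 0.39, adjusted p = 1). The lowest Dex library of Klf9 was barely above the highest vehicle library. Klf5 was at 15.0 and 11.6 CPM in vehicle and at 17.6, 20.2 and 15.0 CPM under Dex, so its lowest Dex library equalled its highest vehicle library at the digits given and lay above it only beyond them. Klf10 was lower in all 3 Dex libraries, at 20.0, 24.1 and 22.6 CPM, than in vehicle, at 28.3 and 32.0 CPM, with an LFC of -0.44. Of the 10 members, 4 had groups that did not overlap, 3 higher (Klf15, Klf9 and Klf5) and 1 lower (Klf10), beside 21.3% of all genes in this comparison of 3 libraries with 2. Their LFCs ranged from -0.44 to 0.77 with a median of 0.07.

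In GRL/L and the double mutant the members were nearly level between treatments. Klf15 in GRL/L was at 1.78, 1.72 and 1.55 CPM in vehicle and at 1.78, 1.77 and 2.13 CPM under Dex. Klf15 in GRD+L/D+L was at 1.35, 0.960 and 0.589 CPM in vehicle and at 1.63, 0.460 and 0.745 CPM under Dex. Groups overlapped in both genotypes, with Klf15 LFCs of 0.17 and -0.03. Klf9 was at 39.8, 31.4 and 42.7 CPM in GRL/L vehicle and at 39.0, 34.2 and 43.7 CPM in GRL/L Dex, with an LFC of 0.04 (SE 0.34, 95% interval -0.69 to 0.76, adjusted p = 1). Klf9 was at 43.8, 33.2 and 40.7 CPM in GRD+L/D+L vehicle and at 48.2, 35.5 and 41.9 CPM in GRD+L/D+L Dex, with an LFC of 0.09 (SE 0.34, adjusted p = 1). The replicates differed from each other by more than the treatments did. Member LFCs ranged from -0.01 to 0.19 in GRL/L and from -0.12 to 0.15 in GRD+L/D+L, with medians of 0.03 and 0.01.

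Within each of these genotypes, vehicle and Dex libraries with the same replicate number deviated together, so each culture can be read on its own. Klf5 was higher under Dex in all 3 GRL/L cultures, at 1.10, 1.19 and 1.15 times the vehicle library, and in all 3 GRD+L/D+L cultures, at 1.16, 1.04 and 1.05 times. Klf9 ratios were 0.980, 1.09 and 1.02 in GRL/L and 1.10, 1.07 and 1.03 in GRD+L/D+L. Over the family, 4 members were higher under Dex in all 3 GRL/L cultures (Klf2, Klf5, Klf10 and Klf15) and 0 were lower in all 3, beside 25.2% of all genes in either direction, of which 1897 were higher and 2070 lower. In the double mutant, 2 were higher in all 3 cultures (Klf5 and Klf9) and 1 was lower, beside 26.7% of all genes in either direction, of which 2213 were higher and 1997 lower. The lower member was Klf4, at 0.961, 0.847 and 0.963 times. Klf10 in GRL/L was at 1.10, 1.05 and 1.04 times. The Klf5 and Klf9 ratios stayed close to 1, whereas the ratios of group means in GRwt/wt were 2.83 for both genes. With Klf15 set aside for its low counts, the ratios of the members ranged from 0.965 to 1.19 in GRL/L and from 0.834 to 1.18 in GRD+L/D+L.

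No member was called with Dex in any mutant, beside 0% of all genes in each, and 0 of the 10 had groups that did not overlap in GRL/L (4.84% of all genes) or in GRD+L/D+L (3.37%). At an unadjusted p of 0.05, 0 members passed in any mutant, against 154, 43 and 54 of all genes in GRD/D, GRL/L and the double mutant, and 4 members and 2454 genes passed in GRwt/wt.

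**Figure D3:**
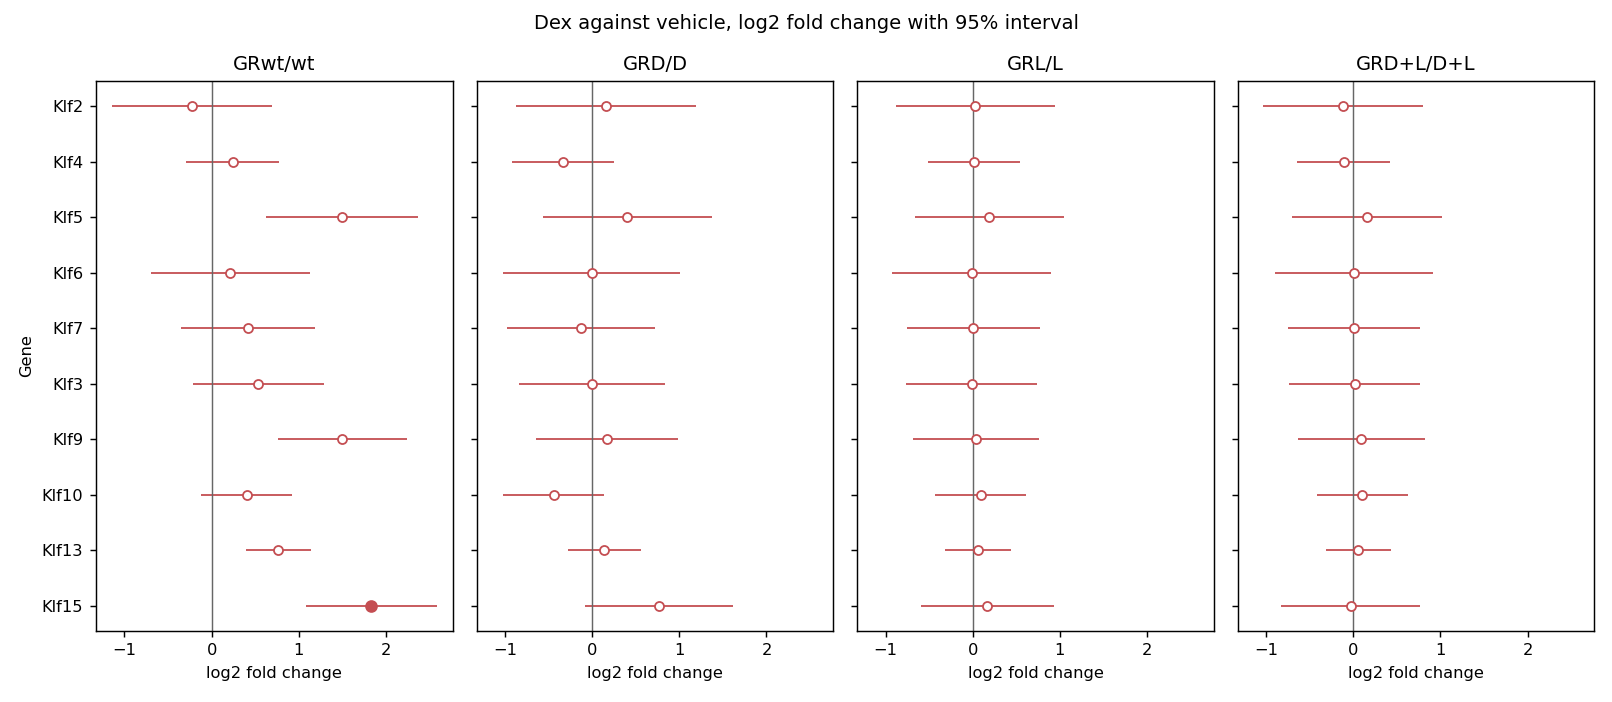
LFC of Dex against vehicle (x axis, log2) with its 95% interval for each member in the 4 genotypes, where filled points mark calls. Klf15 in GRwt/wt, at 1.83, is the filled point, and Klf9, Klf5 and Klf13 sit at 1.50, 1.50 and 0.77 in GRwt/wt and between 0.04 and 0.41 in the mutants.

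The difference of the Dex response between each mutant and GRwt/wt was tested directly, and these 3 comparisons share the GRwt/wt libraries. The order of values below is that of the single mutant of the DNA-binding domain, the single mutant of the ligand-binding domain and the double mutant. For Klf15 the differences in LFC were -1.06 (SE 0.53, adjusted p = 0.725), -1.66 (SE 0.51, adjusted p = 0.785) and -1.86 (SE 0.52, adjusted p = 0.906). For Klf9 they were -1.33 (SE 0.51, adjusted p = 0.688), -1.46 (SE 0.49, adjusted p = 0.785) and -1.40 (SE 0.49, adjusted p = 0.969). The estimated responses of both genes were thus smaller in every mutant, but no difference passed the adjusted threshold. Klf5 had differences of -1.09, -1.31 and -1.34, and Klf13 of -0.63, -0.71 and -0.71. Of the 10 members, 0 were called, beside 0% of all genes for GRD/D, 0.0254% for GRL/L and 0.0254% for GRD+L/D+L. At an unadjusted p of 0.05, 3, 4 and 4 members passed, against 1119, 990 and 796 of all genes. Without both GRwt/wt vehicle libraries 1 and 3, Klf13 was called in the GRL/L difference.

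Under Dex, the levels in each mutant were then compared with GRwt/wt. Klf15 was lower in all 3 mutants. Its GRwt/wt Dex libraries at 12.8, 14.0 and 13.2 CPM compared with means of 3.91 ± 0.515 CPM in GRD/D, 1.89 ± 0.203 CPM in GRL/L and 0.946 ± 0.611 CPM in GRD+L/D+L (SD, n = 3 each). The LFCs were -1.76 (SE 0.36, adjusted p = 0.0441), -2.81 (SE 0.37, adjusted p = 0.00074) and -3.80 (SE 0.39, adjusted p = 7.61e-05), in that order. The GRD/D Dex libraries of Klf15 also lay above all Dex libraries of GRL/L and of the double mutant. The calls in GRL/L and in the double mutant held in all 23 alternatives in which Klf15 was measured. The GRD/D call was lost in 13 of 22 alternatives, at adjusted p-values of 0.0515 to 0.225. It was lost without any single library of GRD/D or of GRwt/wt Dex, with upper-quartile scaling, with no filter on low counts, with only the genotypes compared and with a replicate block, alone or with a GC correction. Between genotypes this block joined libraries by replicate number only, so it did not follow cultures. Across genotypes, deviations of same-numbered libraries correlated at r -0.37 to 0.24. It was kept without each GRwt/wt vehicle library, without both vehicle replicates 1 and 3, and with RLE scaling, DESeq2, a GC correction alone and a prior count of 2.

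Klf9 under Dex was lower in GRL/L, with an LFC of -1.27 (SE 0.35, adjusted p = 0.0419). The double mutant had an LFC of -1.16 (SE 0.35, adjusted p = 0.0618), and GRD/D had an LFC of -0.98 (adjusted p = 0.263). The 3 mutants had Klf9 means of 39.0 ± 4.71, 41.9 ± 6.33 and 47.6 ± 4.18 CPM in that order (SD, n = 3 each), all below the lowest GRwt/wt Dex library at 79.9 CPM. Without GRwt/wt vehicle replicate 1, a library of neither group, the adjusted p-values of Klf9 were 0.000131 in GRL/L, 0.000306 in GRD+L/D+L and 0.00631 in GRD/D. The LFCs then were -1.26, -1.15 and -0.98. The GRL/L call of Klf9 was lost in 12 of 24 alternatives, at adjusted p-values of 0.0524 to 0.184. These were the omission of any single library of GRL/L or of GRwt/wt Dex, no filter on low counts, only the genotypes compared and the block by replicate number.

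Klf13 was lower by adjusted p, with an LFC short of the fold threshold, in GRL/L at -0.86 (SE 0.18, adjusted p = 0.0103) and in the double mutant at -0.80 (SE 0.18, adjusted p = 0.0191), and was at -0.67 in GRD/D (adjusted p = 0.128). Klf5 was at -1.27 in GRD/D (adjusted p = 0.223), -1.03 in GRL/L (adjusted p = 0.146) and -1.17 in the double mutant (adjusted p = 0.107), and all 3 mutants lay below every GRwt/wt Dex library. Klf5 was called in the double mutant without its Dex replicate 1 (LFC -1.86, adjusted p = 0.0191), without GRwt/wt vehicle replicate 1 (LFC -1.16, adjusted p = 0.0443), without both GRwt/wt vehicle libraries 1 and 3 (LFC -1.17, adjusted p = 0.0471) and with a replicate block and GC correction (LFC -1.29, adjusted p = 0.0480). Klf6, an activator that cells induce after injury, was instead above every GRwt/wt Dex library in all 3 mutants. It was at 144 to 185 CPM in GRwt/wt Dex and at means of 253, 206 and 239 CPM in GRD/D, GRL/L and the double mutant under Dex, and did not pass the test in any.

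Under Dex, 1 member was called in GRD/D (0.254% of all genes), 2 in GRL/L (2.59%) and 1 in the double mutant (2.75%). By adjusted p alone, 3 passed in GRL/L (5.47% of all genes) and 2 in GRD+L/D+L (4.89%). Groups did not overlap for 6 members in GRD/D (23.8% of all genes), 5 in GRL/L (42.7%) and 5 in the double mutant (30.0%), with Klf15, Klf9, Klf5 and Klf13 lower and Klf6 higher in each, and Klf10 also lower in GRD/D. The median member LFCs were -0.55, 0.21 and -0.28.

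In vehicle the comparison asked whether the mutations altered members without added ligand, although serum in the medium can carry steroids. Klf15 was lower in GRL/L and in the double mutant. The lowest GRwt/wt vehicle library of Klf15, at 2.43 CPM, was above the highest GRL/L vehicle library at 1.78 CPM and the highest GRD+L/D+L vehicle library at 1.35 CPM. The LFC of GRL/L was -1.15 (SE 0.36, adjusted p = 0.0291), and that of the double mutant was -1.94 (SE 0.37, adjusted p = 0.00244). In GRD/D, Klf15 was at 2.56 and 2.02 CPM, within the GRwt/wt range at its upper value, and the LFC was -0.71. The GRL/L call was lost without GRwt/wt vehicle replicate 2, when the LFC was -0.85 (adjusted p = 0.102), and with each GRL/L vehicle library left out (adjusted p 0.0711 to 0.0885), but was kept without both GRwt/wt vehicle libraries 1 and 3, at -1.65 (adjusted p = 0.0114). It was also lost with no filter on low counts (adjusted p = 0.0626) and with a GC correction, alone at -0.98 (adjusted p = 0.0633) or with the replicate block at -0.99 (adjusted p = 0.0795). The GRD+L/D+L call was kept in each of these omissions of GRwt/wt libraries, with LFCs between -1.64 and -2.43, and was lost in 1 of 23 alternatives, with only the genotypes compared (LFC -1.91, adjusted p = 0.0723).

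Klf10 was higher in GRL/L vehicle, at 58.7, 48.9 and 60.2 CPM, than in GRwt/wt vehicle, at 18.5, 27.5 and 35.4 CPM. It was at 54.1, 53.2 and 47.1 CPM in GRD+L/D+L vehicle. Neither mutant overlapped GRwt/wt. The LFC of GRL/L was 1.04 (SE 0.25, adjusted p = 0.00671), and that of the double mutant was 0.92 (SE 0.25, adjusted p = 0.0167), the latter short of the fold threshold. Without GRwt/wt vehicle replicate 1 the LFCs were 0.83 (adjusted p = 0.0245) and 0.72 (adjusted p = 0.0459), so the GRL/L call was lost on the fold. That call was also lost on the fold with a GC correction, at 0.87 (adjusted p = 0.00729), or at 0.87 (adjusted p = 0.0112) with the replicate block added, with upper-quartile scaling at 0.95 and without GRL/L vehicle replicate 3 at 0.99. With only the genotypes compared it was lost on the adjusted p, at 0.0556. Without GRwt/wt vehicle replicate 3, Klf10 was called in both, with LFCs of 1.32 (adjusted p = 0.00196) and 1.21 (adjusted p = 0.00458). Under Dex the LFCs of Klf10 were 0.73 (adjusted p = 0.0929) and 0.62 (adjusted p = 0.154), and GRwt/wt Dex replicate 2 was at 54.7 CPM. Without that library Klf10 was called in both, with LFCs of 1.17 (adjusted p = 0.00477) and 1.06 (adjusted p = 0.0107).

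In vehicle, 0 members were called in GRD/D (0.00635% of all genes), 2 in GRL/L (7.78%) and 1 in the double mutant (8.32%), and 2 passed by adjusted p alone in GRD+L/D+L (20.4%). In GRD/D 0 members passed at an unadjusted p of 0.05, against 1946 of all genes. Groups did not overlap for 2 members in GRD/D (23.2% of all genes), Klf3 and Klf6, both higher. They did not overlap for 5 members in GRL/L (38.0%), with Klf3, Klf4, Klf7 and Klf10 higher and Klf15 lower, and for Klf10 and Klf15 in GRD+L/D+L (27.4%). The median member LFCs were 0.15, 0.39 and 0.21, against -0.06, -0.05 and -0.05 for all genes.

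**Figure D4:**
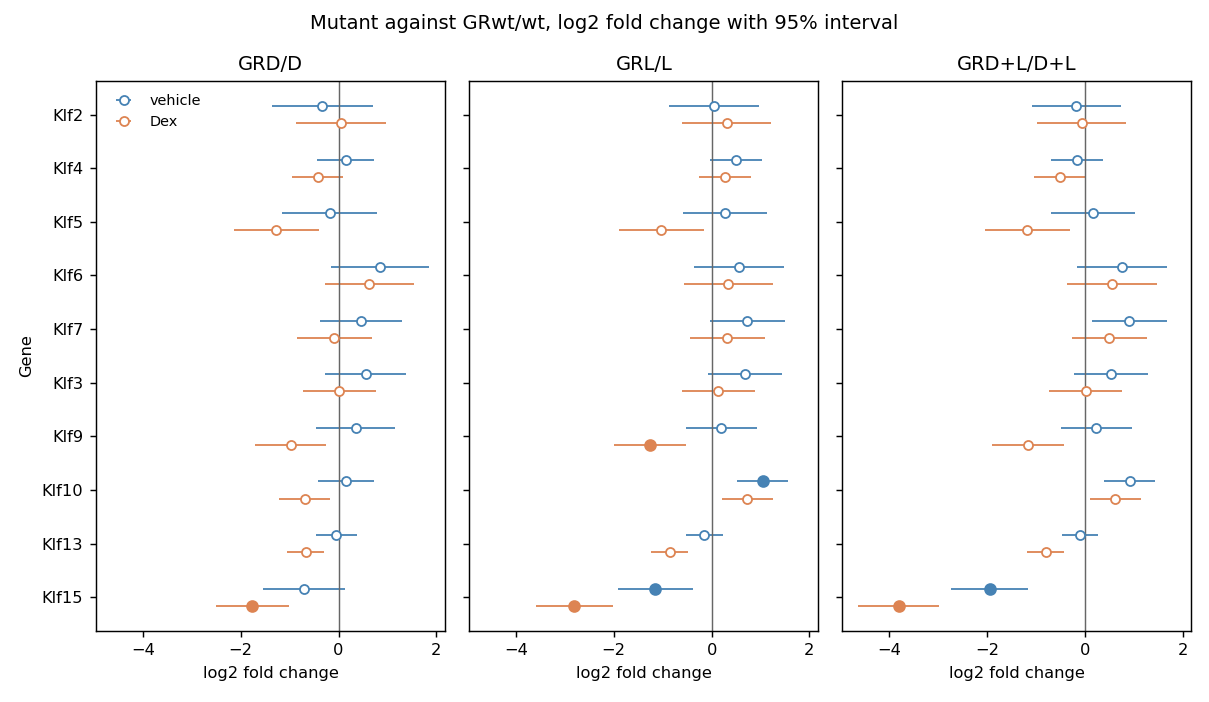
LFC of each mutant against GRwt/wt (x axis, log2) with its 95% interval for each member, in vehicle (blue) and under Dex (orange), where filled points mark calls. Klf15 is below 0 in every panel and treatment, from -0.71 in GRD/D vehicle to -3.80 in GRD+L/D+L Dex, and Klf10 in GRL/L vehicle, at 1.04, is the filled point above 0.

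The members with no call in any comparison of all libraries still differed between libraries. Klf6 was at 25.2, 147 and 249 CPM in the GRwt/wt vehicle replicates and at 247 to 260 CPM in all 5 GRD/D libraries. Its LFC in GRD/D vehicle was 0.85, and without GRwt/wt vehicle replicate 3, the library with the high macrophage markers, it was 1.59 (adjusted p = 0.0492). That omission also gave calls of Klf6 in GRL/L vehicle (LFC 1.29, adjusted p = 0.0280) and in the double mutant (LFC 1.50, adjusted p = 0.0177), and of Klf7 with LFCs of 1.18 (adjusted p = 0.0272) and 1.37 (adjusted p = 0.0171). Calls over all genes rose with it. For GRD/D vehicle they were 376 (2.40%), for GRL/L vehicle 2674 (17.1%) and for double mutant vehicle 2003 (12.8%). With every library kept, these shares were 0.00635%, 7.78% and 8.32%. Klf7 in the double mutant was called as well without its own vehicle replicate 1 (LFC 1.17, adjusted p = 0.0479). Klf3, at 31.2 CPM in GRwt/wt vehicle replicate 1, was at 148 to 201 CPM in the remaining 22 libraries. Klf4, known as a pluripotency and differentiation factor, was at 117 to 134 CPM in the 6 GRL/L libraries and at 63.8 to 98.0 CPM in the 6 GRD+L/D+L libraries, so those genotypes did not overlap. GRwt/wt, at 57.6 to 126.6 CPM, overlapped both.

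In GRD+L/D+L the culture of replicate 1 differed from the other 2 under both treatments. Klf2, known for its role in vessel lining and T cell quiescence, was at 8.55 and 8.76 CPM in its vehicle and Dex libraries, against 23.5 to 35.9 CPM in replicates 2 and 3. Klf7 was at 26.8 and 27.2 CPM against 47.2 to 52.4 CPM. Klf5 went the other way, at 28.6 and 33.2 CPM against 9.74 to 13.1 CPM, a ratio of means of 2.72. Across the family, 6 members were higher in both libraries of replicate 1 than in all 4 of replicates 2 and 3, 3 were lower and 1 overlapped, beside 57.7% of all genes that did not overlap in either direction. Sums of cell type markers moved with this culture. Endothelial markers summed to 4.40 and 4.73 CPM in replicate 1 against 17.1 to 21.6 CPM in replicates 2 and 3, and fibroblast markers to 32455 and 36063 CPM against 44688 to 56019 CPM. Neural markers summed to 223 and 254 CPM against 34.9 to 63.9 CPM, and skeletal muscle markers to 16.5 and 17.1 CPM against 1.78 to 7.83 CPM. Macrophage markers summed to 80.3 and 75.0 CPM against 8.16 to 53.5 CPM, and epithelial markers to 1.76 and 1.79 CPM against 0.920 to 1.35 CPM. Over all libraries, the endothelial markers Pecam1, Cdh5, Tie1, Emcn and Esam reached no more than 1.38 CPM. The neural markers Dcx, Elavl3 and Elavl4 reached no more than 0.430 CPM. The higher endothelial sums and the neural sums therefore rested mostly on the other genes of each list. The part of these markers in the member differences was not tested. The double mutant means of Klf2, Klf5 and Klf7 therefore average cultures that were unlike, as their SDs show, such as 16.9 ± 10.2 CPM (n = 3) for Klf5 in vehicle.

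**Figure D5:**
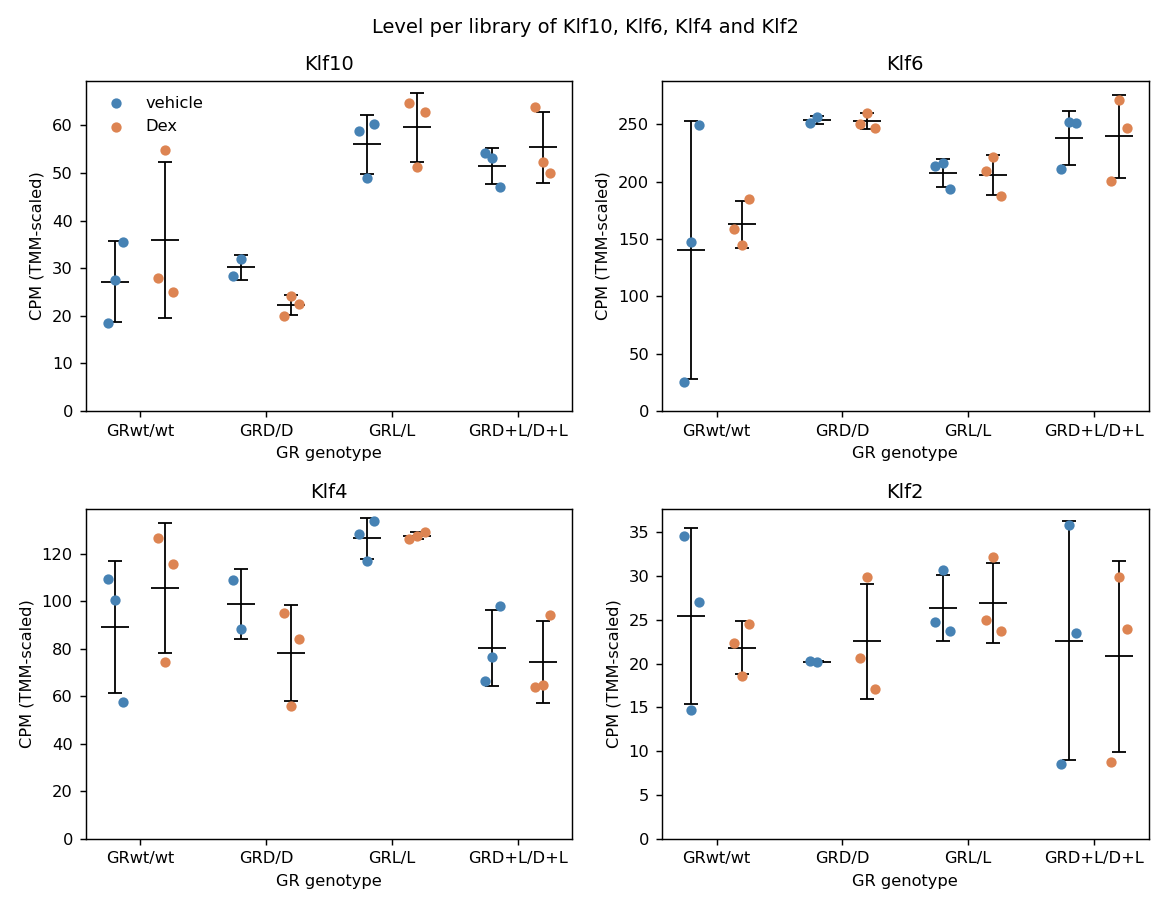
CPM (linear axis from 0) of Klf10, Klf6, Klf4 and Klf2 in the 8 groups, with points for libraries and black bars for mean ± SD. Klf10 is at 47.1 CPM or more in all libraries of GRL/L and of the double mutant, Klf6 spans 25.2 to 249 CPM in GRwt/wt vehicle, and a single GRD+L/D+L culture has Klf2 near 8.55 CPM under either treatment.

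By group mean, Klf15 was ordered GRwt/wt Dex, GRD/D Dex, GRwt/wt vehicle, GRD/D vehicle, GRL/L Dex, GRL/L vehicle, GRD+L/D+L vehicle and GRD+L/D+L Dex. Among neighbours in that order, GRwt/wt Dex did not overlap GRD/D Dex, GRL/L vehicle did not overlap GRD+L/D+L vehicle, and the other neighbours overlapped. GRD/D Dex at 3.91 ± 0.515 CPM and GRwt/wt vehicle at 3.74 ± 1.40 CPM were alike in level. Klf9 fell from GRwt/wt Dex to GRD/D Dex and then to GRD/D vehicle without overlap between these groups, and every later neighbour overlapped, with GRwt/wt vehicle last at 33.2 ± 21.2 CPM. For Klf5 and Klf13, GRwt/wt Dex stood alone and the rest of the order overlapped from neighbour to neighbour, from 20.8 ± 4.20 to 13.3 ± 2.40 CPM for Klf5 and from 63.3 ± 1.92 to 53.5 ± 4.17 CPM for Klf13.

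Of 16 other Krüppel-like and Sp genes, the related family that shares the GC-box fingers, 11 were measured, and 0 were called with Dex in any genotype. Their median LFC in GRwt/wt was 0.41. In vehicle, Klf12, a repressor that binds CtBP, was at 7.13 ± 4.26 CPM in GRwt/wt, 23.1 ± 0.820 CPM in GRL/L and 27.9 ± 5.52 CPM in GRD+L/D+L (SD, n = 3 each), with LFCs of 1.69 (adjusted p = 0.00395) and 1.97 (adjusted p = 0.00234). Its lowest library was GRwt/wt vehicle replicate 1 at 2.32 CPM, and without that library the LFCs were 1.28 (adjusted p = 0.00259) and 1.56 (adjusted p = 0.000852). Sp1, the founding GC-box activator, had LFCs of 1.28 (adjusted p = 0.0235) and 1.20 (adjusted p = 0.0362), but its GRwt/wt vehicle libraries ranged from 14.6 CPM in replicate 1 to 103.6 CPM. Without that replicate both Sp1 calls were lost on the fold, at LFCs of 0.80 (adjusted p = 7.79e-05) and 0.74 (adjusted p = 0.000168), and without both replicates 1 and 3 they were lost at 0.97 and 0.89. Sp9 was called lower in GRD+L/D+L vehicle, where it had 0 counts in every library, against 0 to 17 counts in GRwt/wt vehicle, and the call was lost without GRwt/wt vehicle replicate 2 (adjusted p = 0.317). No gene of this list was called in GRD/D or under Dex.

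Of 12 partner proteins of the family (Sin3a, Ctbp1, Hdac1, Ep300 and others), 12 were measured and 0 were called with Dex. Ep300, the acetyltransferase that acts with the activating members, was higher in vehicle in GRL/L, with an LFC of 1.15 (adjusted p = 0.000893), and in the double mutant, with an LFC of 1.15 (adjusted p = 0.00136). GRwt/wt vehicle replicate 1 was the lowest library of its group for Ep300, at 29.7 CPM. Without it both calls were lost on the fold, at LFCs of 0.88 (adjusted p = 9.18e-05) and 0.88 (adjusted p = 0.000103), and without both replicates 1 and 3 they were kept at 1.05 and 1.04. Of 16 immediate-early genes, which serum and growth factors induce rapidly, 16 were measured and 0 were called with Dex, and the median LFC in GRwt/wt was 0.00. In vehicle, Egr3 was higher in GRL/L (LFC 1.53, adjusted p = 0.0116) and in the double mutant (LFC 1.89, adjusted p = 0.00466), Maff was lower in GRL/L (LFC -1.11, adjusted p = 0.0189) and Atf3 lower in GRD+L/D+L (LFC -2.63, adjusted p = 0.0466). The Atf3 call rested on GRwt/wt vehicle replicate 3, the library with the high macrophage markers, where Atf3 was at 59.1 CPM in a group whose lowest library was at 5.32 CPM. Without replicate 3 the Atf3 LFC was -0.50 (adjusted p = 0.634). Without replicate 1 the Maff LFC was -0.77 (adjusted p = 0.0882), and without both replicates the Egr3 LFC in GRL/L was 1.59 (adjusted p = 0.0837). Under Dex, Egr3 was the called member of that list, in GRD+L/D+L (LFC 1.84, adjusted p = 0.0179).

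Of 19 other glucocorticoid-induced genes, 5 rose with Dex in GRwt/wt, 0 fell, and the median LFC was 1.34, beside 0.48 for the Krüppel-like factors. Zbtb16 had 0 to 7 counts per library in vehicle and was at 2.78 to 16.8 CPM under Dex, and Hif3a had 0 to 4 counts in vehicle and was at 3.12 to 9.28 CPM under Dex. Fkbp5, a co-chaperone of GR, had an LFC of 3.49 (adjusted p = 2.67e-06) and Tsc22d3 (GILZ) an LFC of 1.92 (adjusted p = 0.00272), close to the 1.83 of Klf15. In GRD/D, GRL/L and the double mutant, 0 genes of the list were called and the medians were 0.18, 0.03 and -0.11. Fkbp5 and Per1, a circadian clock gene, were picked out in GRD/D after their values were seen. Fkbp5 was at 31.1 to 32.6 CPM in GRD/D vehicle and at 93.9 to 118 CPM in GRD/D Dex, with an LFC of 1.68 (SE 0.29, adjusted p = 0.137), and Per1 had an LFC of 1.35 (SE 0.21, adjusted p = 0.0999). The Fkbp5 groups did not overlap in GRD/D, but neither gene passed the test. The difference of the response from GRwt/wt was called for Fkbp5 and Per1 in GRL/L and in the double mutant. Under Dex, 5, 13 and 13 of the 19 were called lower than in GRwt/wt. In vehicle, Angptl4 was higher in GRL/L (LFC 1.87, adjusted p = 0.0238), Pdk4 was higher in GRD+L/D+L (LFC 2.91, adjusted p = 0.0164) and Crispld2 was lower there (LFC -2.39, adjusted p = 0.0152). Without both GRwt/wt vehicle libraries 1 and 3, these 3 calls were lost, at adjusted p-values of 0.118, 0.159 and 0.166, as were the Dex calls of Hif3a (adjusted p = 0.166) and Zbtb16 (adjusted p = 0.0517) in GRwt/wt. Angptl4 was also lost without GRwt/wt vehicle replicate 2 (adjusted p = 0.0617).

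The genes whose log2 CPM followed Klf9 most closely over all 23 libraries were Pdp1 (Pearson r = 0.958), Nudt4 (0.945), Aldh6a1 (0.903), Nipal1 (0.902) and Etfa (0.893). Without GRwt/wt vehicle replicate 1, over 22 libraries, they were Map7d2 (0.946), Ism1 (0.922), Pdp1 (0.920), Acot11 (0.919) and Zbtb16 (0.911). Pdp1, a mitochondrial phosphatase of the pyruvate dehydrogenase complex, was the gene common to both. These are descriptions over libraries that share groups and cultures, and no test was made.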

How the data were processed

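MEFs were profiled by RNA-seq (TruSeq libraries, NovaSeq sequencer). Per the submitters' processing notes and the study's methods, the authors mapped reads to mm10 with HISAT2 2.1.0, discarded reads without a unique position and obtained gene counts with featureCounts 2.0.0; the deposited values are these raw counts. Annotation release and strandedness are not given in the sources used here. Columns were matched to libraries by name. Of 55487 gene identifiers, 55227 occur in GENCODE M21 (GRCm38), which gave symbols and coordinates.

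The quasi-likelihood test of edgeR 4.0.16 was run in R 4.3.3 on 1 model of all 23 libraries with 1 mean per group, TMM scaling, filterByExpr and a prior count of 0.125. The SE is the absolute LFC over the square root of F. Calls required an adjusted p (Benjamini-Hochberg) no higher than 0.05 and an LFC of 1 or more in size. Adjusted p-values are from edgeR unless DESeq2 1.42.0 is named, over 15748 genes in the main fit. In an alternative they are over the genes of that fit, which numbered 11895 to 29404. CPM are counts scaled to a common library size with TMM factors, with the SD over libraries; per kilobase values divide by merged exon length. Totals of 16.5 M to 23.1 M counts limit Klf15 most, and SDs cover the spread between cultures. Libraries of the same group all differed beyond counting noise (lowest mean chi-square per gene 9.62).

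Members are named with LFC, SE and adjusted p where the adjusted p is at most 0.05, and Klf9 in every Dex response; exceptions are given in the text. From lists of other Krüppel-like and Sp genes, partner proteins, immediate-early genes and other glucocorticoid-induced genes, up to 4 called genes are named. The members and lists were chosen with earlier results of these data known. Cell type markers (fibroblast, macrophage, endothelial, epithelial, skeletal muscle, neural) were summed per library; endothelial markers reached 36.5 CPM, epithelial 5.90 CPM and neural 261 CPM. The pairing of replicate numbers was checked from the correlation of deviations from group means: Dex and vehicle libraries of a number deviated together in GRL/L (r 0.32, 0.64 and 0.63) and GRD+L/D+L (r 0.89, 0.79 and 0.65), but in GRwt/wt for replicate 1 only (r 0.55, 0.03 and -0.03) and in GRD/D for 1 of 2 numbers (r 0.28 and -0.20), which missed the criterion that every correlation be over 0.1. Between numbers, GRwt/wt Dex 3 also deviated with vehicle 2 (r 0.54) and Dex 2 with vehicle 3 (r 0.37). In GRD/D, Dex 3 did so with vehicle 2 (r 0.45) and Dex 2 with vehicle 1 (r 0.20). In GRD+L/D+L, Dex 2 did so with vehicle 3 (r 0.30) and Dex 3 with vehicle 2 (r 0.28), below the same-number values of 0.79 and 0.65. Whether such libraries share a culture is not given in the sources used here. The method was tested on simulated counts. Alternatives were RLE and upper-quartile scaling, no filter, at least 10 counts in every library, adjusted p alone, only the genotypes compared, DESeq2, a replicate block, a GC correction, both, a prior count of 2 and each library left out; omitting both GRwt/wt vehicle libraries 1 and 3 was added after seeing the data, as were the values of called list genes without GRwt/wt vehicle libraries.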

Additional observations from a re-analysis of the deposited data

How the results depend on the processing

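Of the recomputed counts of called members, 198 stayed within 1.5 times the reported count and 70 did not. Of the recomputed LFCs of named members, 533 kept direction and side of the adjusted p threshold. A further 51 no longer passed that threshold, 19 came to pass it and 4 changed sign. The fold threshold was not used in these labels, so they are not counts of calls. The causes were not tested. Counts of this size change with a single gene near the threshold. The filter of at least 10 counts in every library left out Klf15 by construction. Klf15 under Dex, in both genotypes with the ligand-domain change, was called in every alternative that measured it.

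With Dex in GRwt/wt, 1 member was called, and 0 with upper-quartile scaling, without the filter, with at least 10 counts in every library or with only the genotypes compared; 3 were called with DESeq2, 2 with the GC correction, and 3 with the replicate block, alone or with the GC correction (Klf5, Klf9 and Klf15). In GRwt/wt, libraries with the same number deviated together for replicate 1 only (r 0.55, against 0.03 and -0.03), while Dex 3 went with vehicle 2 (r 0.54) and Dex 2 with vehicle 3 (r 0.37). The number was not taken as a pairing there, a block by number may not follow the cultures, and it raised the calls over all genes from 25 to 199; with DESeq2 they were 279. For GRL/L and for GRD+L/D+L, where the numbers paired the libraries, 0 members were called with Dex with or without the block. For the difference of the response in GRL/L, the count of 0 became 1 with the replicate block and GC correction (Klf5) and 1 without both GRwt/wt vehicle libraries 1 and 3 (Klf13), and in GRD+L/D+L it became 1 with the block and GC correction (Klf5).

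In GRL/L vehicle the count of 2 became 1 with upper-quartile scaling, without the filter, with at least 10 counts or with only the genotypes compared, and 0 with the GC correction, alone or with the replicate block, when both Klf10 and Klf15 were lost. In GRD+L/D+L vehicle the count of 1 became 0 with at least 10 counts or only the genotypes compared, and 2 by adjusted p alone. Under Dex, the GRD/D count of 1 became 0 with upper-quartile scaling, no filter, at least 10 counts, only the genotypes compared and the replicate block, alone or with the GC correction. The GRL/L count of 2 became 1 with no filter, at least 10 counts, only the genotypes compared and the block. The GRD+L/D+L count of 1 became 2 with upper-quartile scaling, adjusted p alone, DESeq2 or the GC correction, 0 with at least 10 counts, and 3 with the block and GC correction or without both GRwt/wt vehicle libraries 1 and 3.

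Leaving out each library in turn gave counts of 0 to 2 with Dex in GRwt/wt, 0 to 1 in GRD/D vehicle (Klf6 without GRwt/wt vehicle replicate 3), 0 to 4 in GRL/L vehicle and 1 to 4 in GRD+L/D+L vehicle (the 4 being Klf6, Klf7, Klf10 and Klf15 without GRwt/wt vehicle replicate 3). Under Dex they were 0 to 1 in GRD/D, 1 to 2 in GRL/L and 1 to 3 in GRD+L/D+L. In vehicle, omitting GRwt/wt vehicle replicate 3 also raised the share of all genes called. It went from 0.00635% to 2.40% (GRD/D), from 7.78% to 17.1% (GRL/L) and from 8.32% to 12.8% (double mutant). Signs changed for the Klf9 response, near 0 in GRL/L at 0.04, to -0.05 without GRL/L Dex replicate 3 and -0.083 without vehicle replicate 2, within a range of -0.083 to 0.129 over these omissions. In GRD+L/D+L, at 0.09, it changed to -0.020 without Dex replicate 1 and -0.01 without vehicle replicate 2, within a range of -0.020 to 0.200.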
